A study of Homo sapiens with 9 samples.

Results

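NXF1 is the main receptor that carries mature messenger RNA out of the nucleus, and its depletion by siRNA was compared with a control siRNA across all annotated genes of the array. The cells were HCT116, an established human colorectal carcinoma line, and their cytoplasmic RNA, released with digitonin, was taken 72 h after transfection. The comparison used 6 of the 9 arrays of the series, 3 with NXF1 siRNA and 3 with control siRNA, 1 of each in experiments 1, 2 and 3. The remaining 3 arrays received GANP siRNA. Of 18665 genes named on the array, 13118 were bright enough to test. The depletion of NXF1 could not be checked at the level of its own mRNA, since the annotation assigned the symbol NXF1 to none of the probes used here. All the data come from 1 cell line. MCM3AP, which encodes GANP and was not targeted in these 6 arrays, gave log2 signals of 9.65, 9.70 and 9.82 with NXF1 siRNA, against 9.59, 9.80 and 9.88 with control siRNA, and its difference was -0.033 ± 0.10 (adjusted p = 0.849).

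NXF1 works as a dimer with NXT1 (also called p15). Adaptor proteins of the TREX complex, which load onto a transcript as it is capped, spliced and cleaved, hand the mRNA to this dimer, and the dimer then crosses the nuclear pore by binding the repeats that line its channel. On the cytoplasmic side the helicase DDX19B and its cofactor GLE1 strip the receptor from the RNA. Several kinds of RNA leave by other routes or stay behind: small nuclear RNAs are carried by the export receptor CRM1 (XPO1), tRNAs by exportin-t (XPOT), and 7SK remains nuclear.

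The signals were scaled so that every array had the same distribution, and each difference is therefore relative to the rest of the array and cannot show a loss of cytoplasmic mRNA as a whole. In bulk RNA, fewer cells of a type and less RNA per cell cannot be told apart. Below, a value per array is a log2 signal, always in the order of experiments 1, 2 and 3, and a difference is the mean log2 signal with NXF1 siRNA minus that with control siRNA, so that 1 is a 2-fold rise. The sign ± is limma's standard error (n = 3 arrays each), from a fit that left out the pairing by experiment unless stated. The value p is adjusted by Benjamini and Hochberg over the 13118 genes. A gene was called higher or lower at an adjusted p under 0.05 and a difference over 0.25 or under -0.25. With NXF1 siRNA 1521 genes were higher (11.6% of those tested) and 1842 were lower (14.0%), 25.6% in either direction. Differences over 1 were found for 55 of the higher genes, and differences under -1 for 44 of the lower genes. All 3 NXF1 siRNA arrays lay above all 3 control arrays for 1489 of the higher genes and below them for 1813 of the lower genes, and over all genes tested the arrays separated in these directions for 18.7% and 21.0%. The calls rest on the same arrays, so groups that are apart in a called gene describe it and are no further support. The filter on dim probes used the mean of all 9 arrays. Of the genes that passed, 274 had a mean over it with NXF1 siRNA but under it with control siRNA, and 31 of these were called higher. For 263 genes the reverse held, and 37 of these were called lower.

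**Figure D1:**
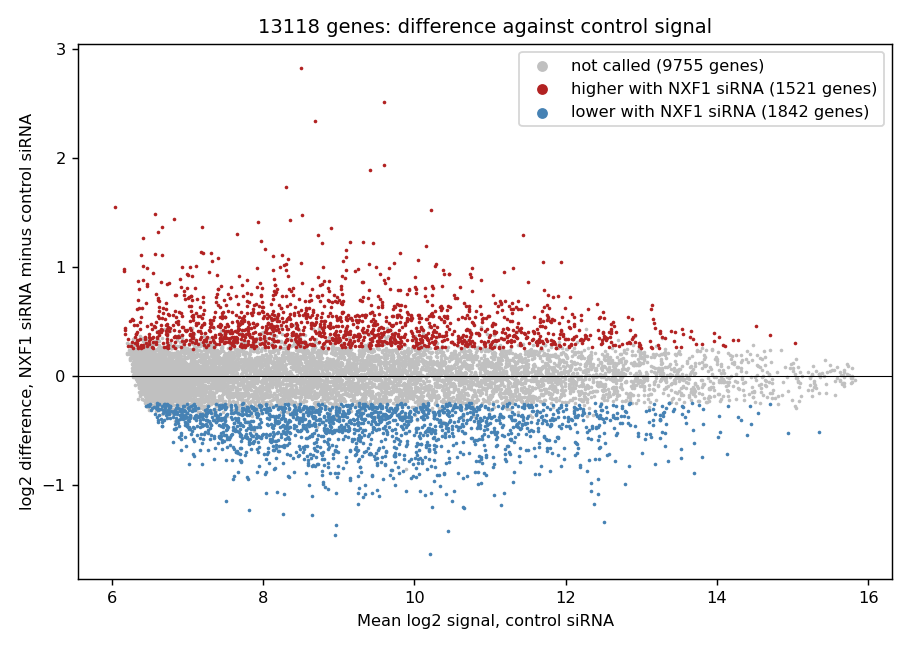
Each point is 1 of 13118 genes; the x axis is the mean log2 signal of the 3 control siRNA arrays and the y axis the log2 difference, NXF1 siRNA minus control siRNA. The 1521 genes called higher reach further from 0 than the 1842 called lower, and few genes at the dim end were called.

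The largest rise was that of DDIT3, which encodes CHOP, a transcription factor that promotes cell death when stress is not resolved. Its log2 signals were 11.09, 11.33 and 11.54 with NXF1 siRNA, against 8.55, 8.32 and 8.62 with control siRNA, a difference of 2.82 ± 0.13 (adjusted p = 1.33e-07). RN7SK, the noncoding RNA that holds the elongation factor P-TEFb inactive in the nucleus, gave 12.13, 12.27 and 11.93 with NXF1 siRNA, against 9.92, 9.58 and 9.29 with control siRNA. KRT80, an epithelial keratin, gave 11.12, 10.996 and 10.97 with NXF1 siRNA, against 8.99, 8.72 and 8.36 with control siRNA. In all 3 genes the lowest NXF1 siRNA array lay more than 1 log2 unit above the highest control array. GDF15, a secreted stress cytokine, gave 11.51, 11.45 and 11.67 with NXF1 siRNA, against 9.94, 9.45 and 9.43 with control siRNA. SUN3, a SUN domain protein of the nuclear envelope best known from the testis, differed by 1.89 ± 0.076 (adjusted p = 7.62e-08), and PLAU, the urokinase plasminogen activator, by 1.73 ± 0.15 (adjusted p = 8.63e-06). RNU2-1, the U2 small nuclear RNA of the spliceosome, gave 7.52, 7.999 and 7.27 with NXF1 siRNA, against 6.06, 6.15 and 5.93 with control siRNA. These were among the dimmest signals of the genes named here, and the control siRNA arrays of RNU2-1 lay under the filter. TMED10P1, a pseudogene whose parent TMED10 encodes a cargo receptor of the early secretory pathway, differed by 1.52 ± 0.17 (adjusted p = 5.87e-05), and its signal cannot be separated here from that of a near-identical parent transcript. RIMBP3 differed by 1.49 ± 0.087 (adjusted p = 1.34e-06) and KRT7, a keratin of simple epithelia, by 1.47 ± 0.12 (adjusted p = 5.39e-06).

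The largest fall was that of DDIT4L, an inhibitor of mTOR signalling, which gave 8.78, 8.52 and 8.42 with NXF1 siRNA, against 10.15, 10.26 and 10.23 with control siRNA, a difference of -1.64 ± 0.093 (adjusted p = 1.20e-06). Its relative DDIT4 (REDD1) moved the opposite way and gave 12.38, 12.07 and 12.45 with NXF1 siRNA, against 11.32, 11.12 and 11.48 with control siRNA, a difference of 0.99 ± 0.11 (adjusted p = 5.70e-05). ZCCHC12, a zinc finger protein, gave 7.39, 7.55 and 7.52 with NXF1 siRNA, against 8.75, 9.01 and 9.08 with control siRNA. CD24, a small glycoprotein held at the cell surface by a lipid anchor, gave 8.97, 9.24 and 8.84 with NXF1 siRNA, against 10.30, 10.63 and 10.40 with control siRNA. The groups did not overlap in these 4 genes, which the rule for choosing the 10 largest rises and falls required of all but DDIT4, a list member outside that choice. MAGEE1, of the MAGE family, differed by -1.37 ± 0.09 (adjusted p = 2.35e-06), SH3BGRL2 by -1.27 ± 0.086 (adjusted p = 2.63e-06), LEMD1, a LEM domain protein, by -1.27 ± 0.15 (adjusted p = 7.14e-05) and CNTNAP2, a neurexin relative, by -1.24 ± 0.081 (adjusted p = 2.35e-06). TMSB15A and TMSB15B, which encode near-identical thymosins and may share signal, differed by -1.34 ± 0.083 (adjusted p = 2.07e-06) and -1.22 ± 0.084 (adjusted p = 3.04e-06). CBR4, a carbonyl reductase of mitochondrial fatty acid synthesis, differed by -1.20 ± 0.091 (adjusted p = 4.24e-06).

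**Figure D2:**
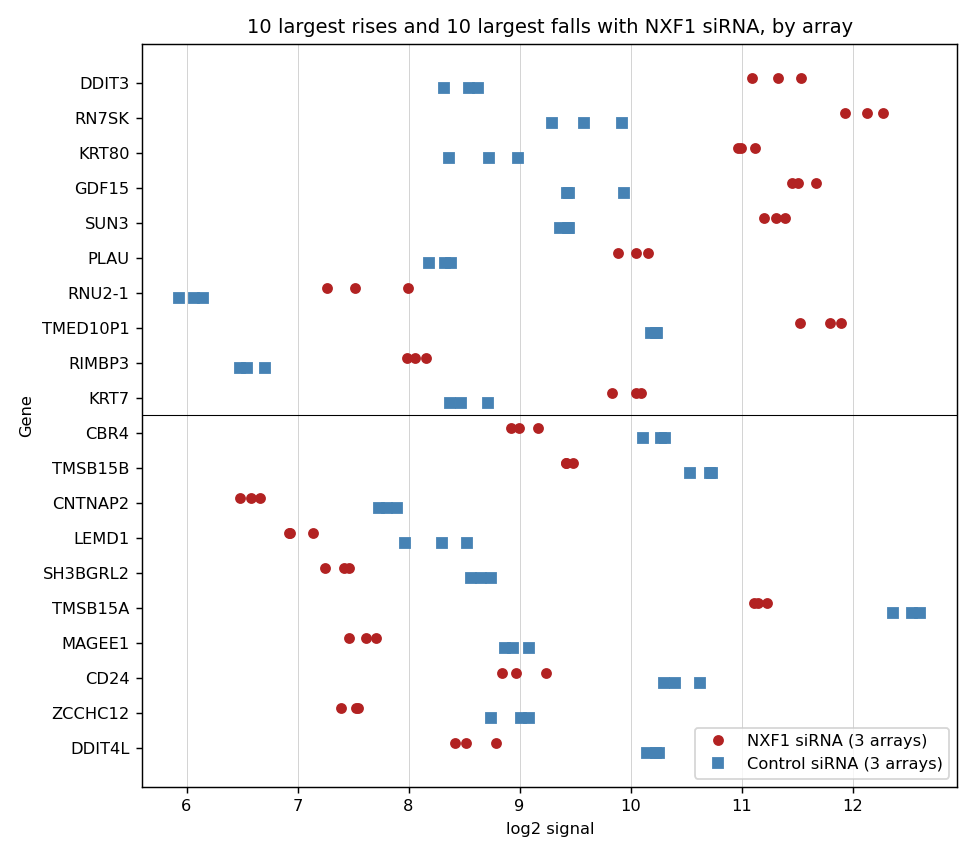
Log2 signals (x axis) of the 3 NXF1 siRNA arrays (circles, upper of each pair) and the 3 control siRNA arrays (squares, lower of each pair) for the 10 genes with the largest rise (above the line) and the 10 with the largest fall (below it). The genes were chosen among called genes whose groups do not overlap, and DDIT3 has the widest gap between them.

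The export machinery itself showed small differences. Of 30 tested export factors, 4 were higher, 3 were lower and 23 were not called, with a median difference of 0.033. Counts moved to 2 higher without NXF1 siRNA array 2, NXF1 siRNA array 3 or control siRNA array 3, and 7 higher without NXF1 siRNA array 1. NXT1, the partner of NXF1, gave 12.56, 12.52 and 12.47 with NXF1 siRNA, against 12.46, 12.46 and 12.35 with control siRNA, with a difference of 0.10 ± 0.074 (adjusted p = 0.396). NXT2, a relative of NXT1, was higher by 0.26 ± 0.08 (adjusted p = 0.0274), a call that held in 2 of the 6 fits that each left out 1 array, those without NXF1 siRNA array 1 (adjusted p = 0.0287) and control siRNA array 2 (adjusted p = 0.0278), with an adjusted p up to 0.1 in the others. Its call was also lost without background correction and on the authors' values as deposited. FYTTD1, the adaptor UIF, was higher by 0.42 ± 0.088 (adjusted p = 0.00378), and SARNP (CIP29), a TREX component, by 0.32 ± 0.079 (adjusted p = 0.00882). THOC1, a subunit of the THO core of TREX, was higher by 0.28 ± 0.092 (adjusted p = 0.0418) and was called in 1 of the 6 fits that each left out 1 array, that without NXF1 siRNA array 1 (adjusted p = 0.00425), with an adjusted p up to 0.159 in the others. It was also lost with no filter on dim probes and with the 6 arrays alone. The adaptor ALYREF had a difference of 0.23 ± 0.082 (adjusted p = 0.051) and the TREX helicase DDX39B (UAP56) one of -0.038 ± 0.079 (adjusted p = 0.783). Its paralog DDX39A, with 0.36 ± 0.13 (adjusted p = 0.0595), was not called but passed the test once the experiment number was added to the model (adjusted p = 0.00403). Of the genes that were lower, NCBP2, the smaller subunit of the cap-binding complex, differed by -0.37 ± 0.094 (adjusted p = 0.0108) and was called in 5 of the 6 fits that each left out 1 array, all but that without control siRNA array 2 (adjusted p = 0.0527). DDX19A, a paralog of the release helicase, differed by -0.33 ± 0.085 (adjusted p = 0.012); neither NCBP2 nor DDX19A was called on the mean of its probes. THOC6, another THO subunit, differed by -0.27 ± 0.08 (adjusted p = 0.0225) and was called in 3 of the 6 fits that each left out 1 array, all but those without NXF1 siRNA array 1 (adjusted p = 0.0657), NXF1 siRNA array 2 (adjusted p = 0.0624) and control siRNA array 1 (adjusted p = 0.0775). The release cofactor GLE1 differed by -0.22 ± 0.071 (adjusted p = 0.0384), under the fold threshold. Called genes of the pore and of the transport receptors lay in both directions: the list of nuclear pore proteins had 5 of 27 tested members higher and 2 lower with NXF1 siRNA (median log2 difference 0.0077, with 3 higher without NXF1 siRNA array 2, NXF1 siRNA array 3 or control siRNA array 1) and that of karyopherins and the Ran cycle 2 of 28 tested members higher and 3 lower with NXF1 siRNA (median log2 difference -0.063). The scaffold nucleoporin SEH1L was higher by 0.53 ± 0.083 (adjusted p = 0.000562) on its brightest probe but not on the mean of its probes, and the pore membrane protein NDC1 by 0.46 ± 0.091 (adjusted p = 0.00257). XPOT, the tRNA exporter, was higher by 0.64 ± 0.10 (adjusted p = 0.000452) and the importin KPNA4 by 0.62 ± 0.10 (adjusted p = 0.000612). AAAS (aladin), a pore protein, was lower, with a difference of -0.39 ± 0.083 (adjusted p = 0.00398), and the importin IPO9 with -0.38 ± 0.076 (adjusted p = 0.00272).

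Small noncoding RNAs, most of which act in the nucleus or nucleolus, included 4 of the 55 genes that were higher by more than 1. The list had 5 of 11 tested members higher and 0 lower with NXF1 siRNA (median log2 difference 0.35, with 3 higher with the filter at percentile 75), against 11.6% of all genes higher. The 5 include RNU2-1, whose signal with control siRNA was under the filter. In the wider classes of RefSeq, 3 of 30 snoRNAs were higher (10%, below the share of all genes) and 1 was lower, with a median difference of 0.098, and 3 of 6 small nuclear RNAs were higher. In the list, besides 7SK and U2, the higher RNAs were SNORD46, a C/D box snoRNA, with 7.91, 8.01 and 7.86 with NXF1 siRNA, against 6.91, 6.45 and 6.46 with control siRNA, RNU6ATAC, the U6atac RNA of the minor spliceosome, with 8.09, 8.43 and 8.43 with NXF1 siRNA, against 7.09, 7.11 and 7.34 with control siRNA, and RPPH1, the RNA of RNase P, with a difference of 0.47 ± 0.12 (adjusted p = 0.0111) that was called in 5 of the 6 fits that each left out 1 array, all but that without control siRNA array 2 (adjusted p = 0.0584). The groups of SNORD46 and RNU6ATAC were apart by more than the spread within either. The box H/ACA RNA SNORA70, by comparison, had a difference of -0.16 ± 0.13 (adjusted p = 0.441) and was not called. RN7SL1, the RNA of the signal recognition particle, had 0.35 ± 0.15 (adjusted p = 0.12) and was called only with the experiment number in the model (adjusted p = 0.00814). The summed linear signal of the 11 RNAs was 17448 to 21515 on the NXF1 siRNA arrays and 11917 to 15318 on the control arrays. The part of these RNAs in the other differences was not tested. Per the study's methods the RNA was amplified before hybridisation. How far RNAs without a poly(A) tail were copied was not tested, so these signals cannot be read as amounts in the cytoplasm. Only 3 long nuclear-retained RNAs were tested, too few to describe the class. The telomerase RNA TERC was higher by 0.37 ± 0.086 (adjusted p = 0.00642), and MEG3 had -0.041 ± 0.09 (adjusted p = 0.797). TUG1 was lower, with a difference of -0.31 ± 0.10 (adjusted p = 0.0446), a call that held in 0 of the 6 fits that each left out 1 array (adjusted p between 0.06 and 0.162) and was lost with no filter. Host genes of snoRNAs had 1 of 9 tested members higher and 0 lower with NXF1 siRNA (median log2 difference -0.044), with 2 higher once the experiment number was in the model. The probes for MALAT1 did not pass the filter on dim signals. Replication-dependent histone transcripts, which end in a stem-loop in place of a poly(A) tail, had 3 of 37 tested members higher and 0 lower with NXF1 siRNA (median log2 difference 0.038, with 5 higher without NXF1 siRNA array 2), with H4C2 higher by 0.94 ± 0.08 (adjusted p = 8.63e-06) and H4C1 by 0.69 ± 0.11 (adjusted p = 0.00051), and 6 were higher with the experiment number in the model.

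The targets of the integrated stress response, in which kinases such as PERK and GCN2 phosphorylate eIF2 and the transcription factor ATF4 is made, had 20 of 42 tested members higher and 5 lower with NXF1 siRNA (median log2 difference 0.31). Beside DDIT3 and GDF15, ATF3, a transcription factor induced by many stresses, gave 10.53, 10.50 and 10.62 with NXF1 siRNA, against 9.38, 9.28 and 9.31 with control siRNA. SLC7A11, the cystine transporter, gave 7.48, 7.68 and 7.93 with NXF1 siRNA, against 6.61, 6.46 and 6.66 with control siRNA. Neither gene had overlapping groups, and their differences were 1.22 ± 0.073 (adjusted p = 1.47e-06) and 1.12 ± 0.11 (adjusted p = 2.64e-05). Among the lower members, KLHL24 differed by -0.92 ± 0.12 (adjusted p = 0.000167), CEBPG, a partner of ATF4, by -0.73 ± 0.094 (adjusted p = 0.000136), the mitochondrial serine enzyme SHMT2 by -0.52 ± 0.077 (adjusted p = 0.000377) and ATF5 by -0.46 ± 0.11 (adjusted p = 0.00976). The arrays of CEBPG were 10.27, 10.08 and 10.01 with NXF1 siRNA, against 10.84, 10.91 and 10.82 with control siRNA, with no overlap.

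Chaperones and folding enzymes of the endoplasmic reticulum (ER), with the sensors and targets of the unfolded protein response, gave the highest share of higher genes of the 53 lists. The list had 22 of 43 tested members higher and 0 lower with NXF1 siRNA (median log2 difference 0.35), 51.2% of those tested. DNAJC3 (p58IPK), an ER cochaperone that restrains eIF2 kinases, gave 8.15, 8.70 and 8.16 with NXF1 siRNA, against 7.31, 7.22 and 7.11 with control siRNA. ATF6, the sensor that is cleaved in the Golgi to become a transcription factor, gave 10.07, 10.25 and 10.20 with NXF1 siRNA, against 9.32, 9.21 and 9.12 with control siRNA. SELENOS, a component of the pathway that moves misfolded proteins back to the cytosol, differed by 0.86 ± 0.13 (adjusted p = 0.000388), and so did DERL2, a channel component of that pathway, by 0.72 ± 0.09 (adjusted p = 0.000112), although the mean of the probes of DERL2 was not called. XBP1, whose mRNA is spliced by IRE1 to give the active factor, differed by 0.61 ± 0.10 (adjusted p = 0.000999), and the lectin chaperone CALR (calreticulin) by 0.50 ± 0.11 (adjusted p = 0.00592). HSPA5 (BiP), the main HSP70 chaperone of the ER, gave 7.87, 8.09 and 8.38 with NXF1 siRNA, against 7.70, 7.996 and 8.25 with control siRNA and was not called, with a difference of 0.13 ± 0.22 (adjusted p = 0.72). HSP90B1 (GRP94) had 0.26 ± 0.19 (adjusted p = 0.372) and CANX (calnexin) -0.14 ± 0.087 (adjusted p = 0.28). Within experiments 1, 2 and 3, DNAJC3 differed by 0.85, 1.48 and 1.05, ATF6 by 0.76, 1.03 and 1.08 and CALR by 0.15, 0.65 and 0.71. All 9 of these differences were above 0, and that of CALR was smallest in experiment 1. Over the whole list the median difference was 0.19 in experiment 1, 0.43 in experiment 2 and 0.35 in experiment 3, and experiment 1 gave the lowest of the 3 differences in 29 of the 43 genes.

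A pair of DNA elements are textbook landmarks of these responses, and the promoters of 5 genes are printed here because they hold them. The C/EBP-ATF response element (searched as TGATGNAA, either strand) is bound by ATF4 and its partners, and the ER stress response element (searched as CCAAT and CCACG with 9 bases of any kind between them, either strand) by ATF6 with NF-Y. The windows run from 250 bases before to 50 bases after the start of the gene, are written 5′ to 3′ on the strand of the gene, and come from RefSeq (GRCh38.p14); capitals mark the match. 
ATF3 (chr1:212565157-212565456, plus strand): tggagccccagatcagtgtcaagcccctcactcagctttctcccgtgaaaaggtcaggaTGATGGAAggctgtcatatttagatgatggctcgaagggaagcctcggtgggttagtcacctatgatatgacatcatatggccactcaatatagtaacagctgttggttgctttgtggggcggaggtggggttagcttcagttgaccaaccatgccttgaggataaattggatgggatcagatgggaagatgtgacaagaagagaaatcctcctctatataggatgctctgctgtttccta
CHAC1 (chr15:40953221-40953520, plus strand): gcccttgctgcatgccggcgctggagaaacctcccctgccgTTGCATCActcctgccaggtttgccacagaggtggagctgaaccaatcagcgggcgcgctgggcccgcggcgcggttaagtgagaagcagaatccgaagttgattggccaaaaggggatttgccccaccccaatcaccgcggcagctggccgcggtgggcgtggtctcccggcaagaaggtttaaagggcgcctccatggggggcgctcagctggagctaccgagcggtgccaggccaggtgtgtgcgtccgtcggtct
XBP1 (chr22:28800520-28800819, minus strand): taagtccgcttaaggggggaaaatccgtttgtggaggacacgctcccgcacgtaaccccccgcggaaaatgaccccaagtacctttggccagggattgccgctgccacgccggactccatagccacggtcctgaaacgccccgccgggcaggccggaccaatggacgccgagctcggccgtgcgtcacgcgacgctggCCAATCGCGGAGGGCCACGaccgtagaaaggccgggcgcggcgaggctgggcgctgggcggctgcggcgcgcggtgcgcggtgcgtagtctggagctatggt
CALR (chr19:12938359-12938658, plus strand): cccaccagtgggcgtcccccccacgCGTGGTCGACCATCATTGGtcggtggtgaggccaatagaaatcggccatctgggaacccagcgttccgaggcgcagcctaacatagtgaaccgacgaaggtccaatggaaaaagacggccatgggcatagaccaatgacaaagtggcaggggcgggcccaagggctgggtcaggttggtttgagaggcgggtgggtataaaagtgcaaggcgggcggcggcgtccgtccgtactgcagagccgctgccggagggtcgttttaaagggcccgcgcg
HSPA5 (chr9:125241294-125241593, minus strand): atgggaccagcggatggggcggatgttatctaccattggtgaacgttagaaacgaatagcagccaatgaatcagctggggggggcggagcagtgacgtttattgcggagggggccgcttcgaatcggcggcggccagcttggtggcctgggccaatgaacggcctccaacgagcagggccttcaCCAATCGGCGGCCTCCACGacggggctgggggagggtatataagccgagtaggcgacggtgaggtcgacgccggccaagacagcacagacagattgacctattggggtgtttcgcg

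In ATF3 the match begins 191 bases before the start, in XBP1 52 and in HSPA5 66; in CHAC1 and CALR, on the opposite strand, its printed letters begin 209 and 225 bases before it. TGATGNAA was found in 10 of 39 promoters of the stress response list (25.6%), against 1003 of 27305 promoters overall (3.67%) and 211 of the 10636 promoters of tested genes (1.98%). Of the 10 genes, ATF3, CHAC1, ASNS and SLC3A2 were higher with NXF1 siRNA, CARS1, AARS1, NARS1, SLC7A1 and FGF21 were tested and not called, and PPP1R15B was not tested. CHAC1, which degrades glutathione, differed by 0.42 ± 0.11 (adjusted p = 0.0155) and was called in 4 of the 6 fits that each left out 1 array, all but those without NXF1 siRNA array 3 (adjusted p = 0.0678) and control siRNA array 2 (adjusted p = 0.0788). Asparagine synthetase ASNS differed by 0.48 ± 0.10 (adjusted p = 0.00325) and SLC3A2, the shared heavy chain of amino acid exchangers, by 0.99 ± 0.20 (adjusted p = 0.00344). The ER stress element was found in 7 of 42 promoters of the ER list (16.7%), against 22 of 27305 overall (0.0806%). Of these 7, XBP1, CALR and CRELD2 were higher, CRELD2, an ER stress-inducible protein, by 0.39 ± 0.092 (adjusted p = 0.00744), and HSPA5, HSP90B1, CANX and ERO1B were not called. Among all genes with a promoter in the table, TGATGNAA was in 2.55% of those higher, 1.73% of those lower and 1.94% of those not called, and DDIT3 and GDF15 had no match in their windows. Within the stress response list, TGATGNAA was in 4 of 18 promoters of higher members (22.2%), 0 of 4 of lower members and 5 of 13 of members not called (38.5%). Within the ER list, the ER stress element was in 3 of 21 promoters of higher members (14.3%) and 4 of 17 of members not called (23.5%). Both lists were drawn up as genes of these responses, so the share over a whole list is no result about the rise. A match is a description of the letters and not a measurement of binding.

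Genes of the secretory and endolysosomal system were called higher more often than lower. The list of ER translocation and the early secretory pathway had 16 of 58 tested members higher and 3 lower with NXF1 siRNA (median log2 difference 0.15), led by TMED9, a cargo receptor of the p24 family, with 10.77, 11.05 and 10.98 with NXF1 siRNA, against 9.56, 9.85 and 10.01 with control siRNA. SRPRB, a subunit of the receptor for the signal recognition particle, differed by 1.02 ± 0.13 (adjusted p = 0.000138), the signal peptidase subunit SPCS3 by 0.73 ± 0.14 (adjusted p = 0.00205) and the COPII coat protein SEC24D by 0.73 ± 0.18 (adjusted p = 0.00941). In the opposite direction, SRP9, a protein of the signal recognition particle that binds the Alu domain of its RNA, gave 13.36, 13.60 and 13.30 with NXF1 siRNA, against 14.03, 14.25 and 14.13 with control siRNA, with all 3 depleted arrays below the controls. Lysosomal genes had 13 of 49 tested members higher and 3 lower with NXF1 siRNA (median log2 difference 0.21, with 8 higher without NXF1 siRNA array 3): ATP6AP1, an accessory subunit of the proton pump, differed by 0.89 ± 0.18 (adjusted p = 0.00274), the protease CTSL by 0.86 ± 0.22 (adjusted p = 0.0116), the sialidase NEU1 by 0.82 ± 0.10 (adjusted p = 9.45e-05) and the fucosidase FUCA1 by 0.78 ± 0.11 (adjusted p = 0.000264). With the experiment number in the model the count of lysosomal genes that were higher was 21. Tetraspanins and surface glycoproteins had 16 of 48 tested members higher and 3 lower with NXF1 siRNA (median log2 difference 0.22). TSPAN6 differed by 0.83 ± 0.10 (adjusted p = 0.000102), CD55, which protects cells from complement, by 0.81 ± 0.13 (adjusted p = 0.000529), the epithelial adhesion molecule EPCAM by 0.65 ± 0.12 (adjusted p = 0.00124) and the tetraspanin CD81 by 0.65 ± 0.12 (adjusted p = 0.00141), while the hyaluronan receptor CD44 was lower, with a difference of -0.90 ± 0.085 (adjusted p = 1.93e-05) beside CD24. Autophagy genes had 14 of 35 tested members higher and 4 lower with NXF1 siRNA (median log2 difference 0.16, with 9 higher without control siRNA array 1 or control siRNA array 3, and 2 lower on the mean of probes), among them VMP1, an ER protein needed for the autophagosome, with 0.81 ± 0.14 (adjusted p = 0.00107), the cargo receptor TAX1BP1 with 0.56 ± 0.074 (adjusted p = 0.000168), and ATG14, a subunit of the lipid kinase complex, with 0.52 ± 0.12 (adjusted p = 0.00529). BNIP3L (NIX), a receptor for the removal of mitochondria, was lower, with a difference of -0.70 ± 0.12 (adjusted p = 0.000931), and the initiating kinase ULK1 with -0.40 ± 0.08 (adjusted p = 0.00257).

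**Figure D3:**
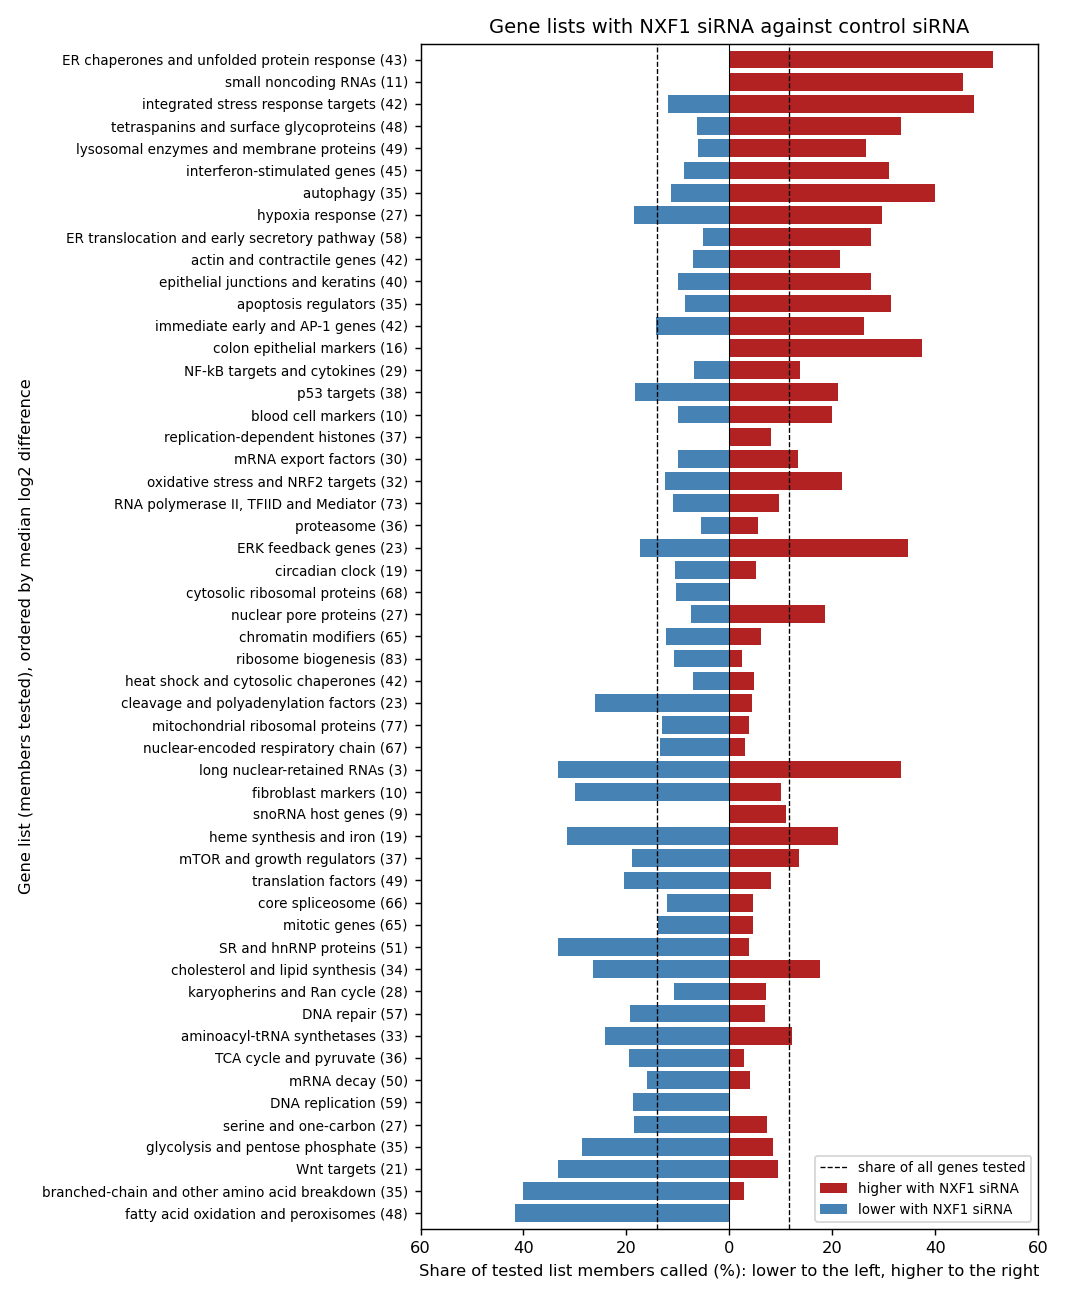
Share of the tested members of each of 53 gene lists called higher (right, red) or lower (left, blue) with NXF1 siRNA against control siRNA, in percent; dashed lines mark the shares over all genes tested, 11.6% higher and 14.0% lower. Lists are ordered by median log2 difference, from ER chaperones at the top to fatty acid oxidation at the bottom, and the number of members tested is in brackets.

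The lists of fatty acid oxidation and of amino acid breakdown had the lowest median differences of the 53 lists. Fatty acid oxidation and peroxisomes had 0 of 48 tested members higher and 20 lower with NXF1 siRNA (median log2 difference -0.19), 41.7% of the tested members against 14.0% of all genes lower. Catalase (CAT), the peroxisomal enzyme that removes hydrogen peroxide, gave 10.29, 10.14 and 10.18 with NXF1 siRNA, against 11.003, 10.95 and 11.18 with control siRNA. HADH, the short-chain hydroxyacyl-CoA dehydrogenase of mitochondrial β-oxidation, gave 11.22, 11.29 and 11.11 with NXF1 siRNA, against 11.91, 12.01 and 12.001 with control siRNA. All NXF1 siRNA arrays of both genes lay below all control arrays. PEX2, a ubiquitin ligase of the peroxisomal import machinery, differed by -0.62 ± 0.07 (adjusted p = 5.87e-05) and ACADVL, the first enzyme for very long chains, by -0.60 ± 0.13 (adjusted p = 0.00479). Within experiments 1, 2 and 3, CAT differed by -0.72, -0.81 and -0.99 and HADH by -0.69, -0.71 and -0.89. Genes for the breakdown of branched-chain and other amino acids had 1 of 35 tested members higher and 14 lower with NXF1 siRNA (median log2 difference -0.19). Both subunits of the branched-chain ketoacid dehydrogenase E1 component were among the lower genes, BCKDHB with -0.82 ± 0.12 (adjusted p = 0.000247) and BCKDHA with -0.73 ± 0.075 (adjusted p = 3.04e-05), as was MCCC2, of leucine breakdown, with -0.63 ± 0.11 (adjusted p = 0.00138). DBT, the E2 component of the same dehydrogenase, was the 1 member called higher, with 0.31 ± 0.076 (adjusted p = 0.00898) on its brightest probe, but the mean of its probes differed by -0.0605 (adjusted p = 0.59).

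Glycolysis and the pentose phosphate pathway had 3 of 35 tested members higher and 10 lower with NXF1 siRNA (median log2 difference -0.12). PFKFB4, which makes an activator of phosphofructokinase, was lower, with a difference of -0.57 ± 0.10 (adjusted p = 0.000827) and the enolase ENO2 with -0.56 ± 0.091 (adjusted p = 0.00076), while SLC2A3, the glucose transporter GLUT3, was higher by 0.54 ± 0.10 (adjusted p = 0.00155). PFKFB2, a paralog of PFKFB4, was higher by 0.42 ± 0.10 (adjusted p = 0.00695), though not on the mean of its probes. In the TCA cycle list, with 1 of 36 tested members higher and 7 lower with NXF1 siRNA (median log2 difference -0.067) and 3 higher with the experiment number in the model, the pyruvate dehydrogenase kinase PDK3 differed by -0.90 ± 0.095 (adjusted p = 3.68e-05) and IDH3A by -0.52 ± 0.11 (adjusted p = 0.00345). Cholesterol and lipid synthesis was split, with 6 of 34 tested members higher and 9 lower with NXF1 siRNA (median log2 difference -0.063): the desaturase SCD was lower, with a difference of -0.71 ± 0.12 (adjusted p = 0.000827), fatty acid synthase FASN with -0.53 ± 0.083 (adjusted p = 0.000554) and acetyl-CoA carboxylase ACACA with -0.52 ± 0.12 (adjusted p = 0.00768), while the elongase ELOVL1 was higher by 0.57 ± 0.11 (adjusted p = 0.00177) and the sterol enzymes MSMO1 and TM7SF2 by 0.56 ± 0.13 (adjusted p = 0.0075) and 0.52 ± 0.10 (adjusted p = 0.00162). Heme and iron genes were split too, with 4 of 19 tested members higher and 6 lower with NXF1 siRNA (median log2 difference -0.045). HMOX1, which degrades heme, was higher by 0.87 ± 0.11 (adjusted p = 9.00e-05) and ALAS1, which starts its synthesis, by 0.43 ± 0.072 (adjusted p = 0.000838), while FECH, which inserts the iron, was lower, with a difference of -0.60 ± 0.085 (adjusted p = 0.000271) and PPOX with -0.43 ± 0.075 (adjusted p = 0.00112). One-carbon genes had 2 of 27 tested members higher and 5 lower with NXF1 siRNA (median log2 difference -0.11, with 8 lower with no threshold on the fold), with SHMT1 at -0.68 ± 0.093 (adjusted p = 0.00021) and CAD, of pyrimidine synthesis, at -0.58 ± 0.073 (adjusted p = 0.000124). The oxidative stress list had 7 of 32 tested members higher and 4 lower with NXF1 siRNA (median log2 difference 0.024), and its members SOD2, the mitochondrial superoxide dismutase, and NQO1, a quinone reductase, moved apart, by 1.04 ± 0.083 (adjusted p = 6.33e-06) and -0.50 ± 0.09 (adjusted p = 0.00132).

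**Figure D4:**
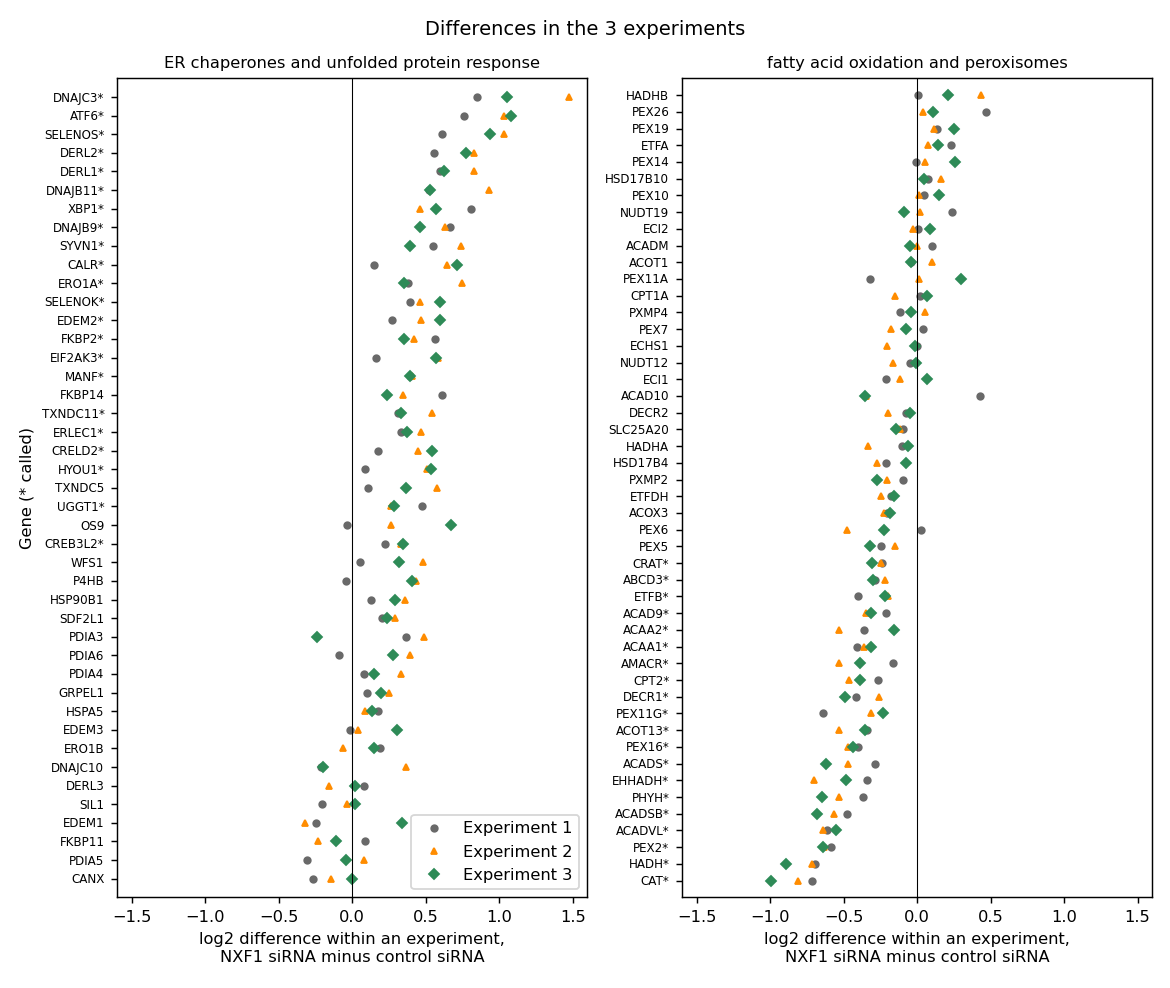
Log2 difference between the NXF1 siRNA and the control siRNA array of the same experiment (x axis) for every tested member (y axis) of the ER chaperone list (left, 43 genes) and the fatty acid oxidation list (right, 48 genes); symbols mark experiments 1, 2 and 3 and an asterisk a called gene. Called ER genes lie to the right of 0 and called oxidation genes to the left of it in all 3 experiments, whose arrays also decided the calls.

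Among aminoacyl-tRNA synthetases, which charge tRNAs with amino acids, the direction followed the compartment in most of the called genes. The list had 4 of 33 tested members higher and 8 lower with NXF1 siRNA (median log2 difference -0.064, with 2 higher without NXF1 siRNA array 3 or control siRNA array 2, and 5 lower without control siRNA array 2 or control siRNA array 3). The 4 higher genes, SARS1, TARS1, WARS1 and GARS1, encode cytosolic enzymes (GARS1 serves the mitochondrion as well), with WARS1 at 0.36 ± 0.077 (adjusted p = 0.0042) and GARS1 at 0.31 ± 0.077 (adjusted p = 0.00998). SARS1, with 0.64 ± 0.18 (adjusted p = 0.0184), was called in 2 of the 6 fits that each left out 1 array, those without NXF1 siRNA array 1 (adjusted p = 0.00483) and control siRNA array 3 (adjusted p = 0.0188), with an adjusted p up to 0.0788 in the others, and TARS1, with 0.41 ± 0.11 (adjusted p = 0.0139), in 4 of the 6 fits that each left out 1 array, all but those without NXF1 siRNA array 3 (adjusted p = 0.0602) and control siRNA array 2 (adjusted p = 0.0702). Of the 8 lower genes, MARS2, VARS2, SARS2, TARS2, EARS2 and HARS2 encode mitochondrial enzymes, and QARS1 and VARS1 cytosolic ones. MARS2 gave 8.69, 8.88 and 8.55 with NXF1 siRNA, against 9.44, 9.50 and 9.48 with control siRNA, without overlap. The mitochondrial synthetase VARS2 differed by -0.50 ± 0.081 (adjusted p = 0.000694) and SARS2 by -0.50 ± 0.081 (adjusted p = 0.000668), and the cytosolic QARS1 by -0.52 ± 0.10 (adjusted p = 0.00211). The grouping by compartment was made after the values were seen, and the 21 members not called were not grouped. Of the tested synthetases 12.1% were higher and 24.2% lower, against 11.6% and 14.0% of all genes. Mitochondrial ribosomal proteins had 3 of 77 tested members higher and 10 lower with NXF1 siRNA (median log2 difference -0.03, with 7 higher without NXF1 siRNA array 1) and the nuclear-encoded respiratory chain 2 of 67 tested members higher and 9 lower with NXF1 siRNA (median log2 difference -0.033, with 4 higher without control siRNA array 1), shares of lower genes near that of all genes. MRPL50 differed by -0.66 ± 0.093 (adjusted p = 0.000254) and MRPS14 by -0.65 ± 0.081 (adjusted p = 0.000109), and cytochrome c (CYCS) by -0.53 ± 0.09 (adjusted p = 0.000894).

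Lists of RNA-binding and RNA-processing proteins differed in their share of lower genes, which was 33.3% for SR and hnRNP proteins, 26.1% for cleavage and polyadenylation factors, 16.0% for mRNA decay and 12.1% for the core spliceosome, against 14.0% of all genes. SR and hnRNP proteins had 2 of 51 tested members higher and 17 lower with NXF1 siRNA (median log2 difference -0.063). HNRNPU, which binds nascent RNA and chromatin, gave 8.30, 8.31 and 8.01 with NXF1 siRNA, against 9.02, 9.19 and 9.24 with control siRNA. HNRNPH2 gave 8.82, 9.15 and 9.10 with NXF1 siRNA, against 9.91, 10.04 and 9.94 with control siRNA. HNRNPA0, whose gene has no intron, differed by -0.82 ± 0.085 (adjusted p = 3.29e-05), and the poly(C)-binding protein PCBP1, also encoded without introns, by -0.62 ± 0.083 (adjusted p = 0.000184). The depleted arrays of HNRNPU and HNRNPH2 lay below every control array. Cleavage and polyadenylation factors had 1 of 23 tested members higher and 6 lower with NXF1 siRNA (median log2 difference -0.027), with 3 higher once the experiment number was in the model. CSTF2T, an intronless paralog of the factor CstF-64, gave 7.06, 7.08 and 7.19 with NXF1 siRNA, against 7.95, 8.16 and 8.43 with control siRNA, PCF11 differed by -0.50 ± 0.10 (adjusted p = 0.00318), NUDT21, a subunit of cleavage factor I, by -0.45 ± 0.10 (adjusted p = 0.00586) and CPSF1 by -0.44 ± 0.078 (adjusted p = 0.00126). The mRNA decay list had 2 of 50 tested members higher and 8 lower with NXF1 siRNA (median log2 difference -0.083, with 4 lower without NXF1 siRNA array 2 or control siRNA array 2, and 5 lower without control siRNA array 3). TOB1, an adaptor of the CCR4-NOT deadenylase, was lower, with a difference of -0.65 ± 0.086 (adjusted p = 0.000173) and the exon junction protein MAGOHB with -0.42 ± 0.087 (adjusted p = 0.00323). The core spliceosome had 3 of 66 tested members higher and 8 lower with NXF1 siRNA (median log2 difference -0.05), with LSM8, of the U6 ring, at -0.61 ± 0.11 (adjusted p = 0.00124), and PRPF18, a late splicing factor, at 0.46 ± 0.085 (adjusted p = 0.00171). Transcription and chromatin lists held called genes in both directions, with 7 of 73 tested members higher and 8 lower with NXF1 siRNA (median log2 difference 0.022, with 4 higher without control siRNA array 2, and 5 lower with the filter at percentile 75) for RNA polymerase II, TFIID and Mediator, and 4 of 65 tested members higher and 8 lower with NXF1 siRNA (median log2 difference -0.001, with 5 lower without control siRNA array 3) for chromatin modifiers.

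The 68 tested cytosolic ribosomal protein genes, which are among the brightest on the array, had a median difference of 0.011, and 7 of them were lower. RPL32 gave 8.85, 8.86 and 8.67 with NXF1 siRNA, against 9.68, 9.63 and 9.52 with control siRNA, RPL37 differed by -0.80 ± 0.079 (adjusted p = 2.36e-05) and RPL22 by -0.75 ± 0.084 (adjusted p = 5.35e-05). The 3 depleted arrays of RPL32 lay below its controls. Most ribosomal protein genes have processed pseudogenes, whose signal cannot be separated here. Ribosome biogenesis had 2 of 83 tested members higher and 9 lower with NXF1 siRNA (median log2 difference -0.0019, with 4 lower without NXF1 siRNA array 3, and 5 lower without control siRNA array 2), the largest fall being that of RRS1, needed for the large subunit, with -0.74 ± 0.082 (adjusted p = 5.46e-05), followed by IMP3, of the small-subunit processome, with -0.64 ± 0.083 (adjusted p = 0.000145). Translation factors had 4 of 49 tested members higher and 10 lower with NXF1 siRNA (median log2 difference -0.05, with 5 lower without control siRNA array 2, and 6 lower without control siRNA array 3). EIF5, which triggers GTP hydrolysis at the start codon, was higher by 0.63 ± 0.086 (adjusted p = 0.00021) and EIF1AX, of start codon scanning, by 0.48 ± 0.079 (adjusted p = 0.000733), both on the brightest probe and not on the mean of the probes. The cap-binding protein EIF4E was higher by 0.40 ± 0.093 (adjusted p = 0.0068). EIF2S2, the beta subunit of eIF2, was lower, with a difference of -0.58 ± 0.12 (adjusted p = 0.00285) and the elongation factor kinase EEF2K with -0.51 ± 0.082 (adjusted p = 0.000654).

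Signalling genes moved in both directions within the same families. Immediate early and AP-1 genes had 11 of 42 tested members higher and 6 lower with NXF1 siRNA (median log2 difference 0.11). JUN gave 10.30, 10.29 and 10.55 with NXF1 siRNA, against 9.42, 8.96 and 9.08 with control siRNA, and its relative JUND gave 13.37, 13.37 and 13.60 with NXF1 siRNA, against 14.08, 13.99 and 13.96 with control siRNA. Both genes lack introns, and in both the groups were apart. DUSP5, a nuclear phosphatase of ERK, differed by 1.29 ± 0.11 (adjusted p = 1.08e-05) and CCN2, a target of YAP, by 1.05 ± 0.14 (adjusted p = 0.000208), while IER5 was lower, with a difference of -0.68 ± 0.071 (adjusted p = 3.34e-05). FOS was lower, with a difference of -0.67 ± 0.18 (adjusted p = 0.0138) and was called in 5 of the 6 fits that each left out 1 array, all but that without NXF1 siRNA array 1 (adjusted p = 0.0503). In the list of ERK feedback genes, with 8 of 23 tested members higher and 4 lower with NXF1 siRNA (median log2 difference 0.021, with 1 lower on the mean of probes or without NXF1 siRNA array 2 or control siRNA array 2, and 2 lower without NXF1 siRNA array 3 or control siRNA array 3), the ligands of the EGF receptor were among the higher members, HBEGF with 0.92 ± 0.095 (adjusted p = 3.29e-05), EREG with 0.83 ± 0.14 (adjusted p = 0.000804) and TGFA with 0.74 ± 0.11 (adjusted p = 0.000474), and the inhibitor SPRY2 was lower, with a difference of -0.37 ± 0.09 (adjusted p = 0.00876). Wnt targets had 2 of 21 tested members higher and 7 lower with NXF1 siRNA (median log2 difference -0.17). AXIN2, a negative feedback gene of the pathway, gave 9.41, 9.42 and 9.16 with NXF1 siRNA, against 10.41, 10.22 and 10.39 with control siRNA, SOX4, an intronless transcription factor gene, gave 9.16, 9.58 and 9.41 with NXF1 siRNA, against 10.05, 10.33 and 10.52 with control siRNA, and FGF9 differed by -0.72 ± 0.11 (adjusted p = 0.000622). None of the NXF1 siRNA arrays of AXIN2 or SOX4 reached the lowest control array. Regulators of mTOR and growth, DDIT4 and DDIT4L among them, had 5 of 37 tested members higher and 7 lower with NXF1 siRNA (median log2 difference -0.046). They included RRAGA, a GTPase that senses amino acids and whose gene lacks introns, at -1.05 ± 0.077 (adjusted p = 3.52e-06), and its partner RRAGC at 0.41 ± 0.077 (adjusted p = 0.00196).

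Stress and death lists held called genes in both directions. p53 targets had 8 of 38 tested members higher and 7 lower with NXF1 siRNA (median log2 difference 0.065, with 4 lower without control siRNA array 2): the death receptor TNFRSF10A differed by 0.80 ± 0.11 (adjusted p = 0.00019), GADD45B by 0.75 ± 0.11 (adjusted p = 0.000445) and GADD45A by 0.65 ± 0.092 (adjusted p = 0.000279), and CCNG1 by -0.66 ± 0.10 (adjusted p = 0.000455), TP53INP1 by -0.65 ± 0.083 (adjusted p = 0.000138) and TRIAP1 by -0.54 ± 0.081 (adjusted p = 0.000433). Apoptosis regulators had 11 of 35 tested members higher and 3 lower with NXF1 siRNA (median log2 difference 0.11). CASP4, an inflammatory caspase, was higher by 0.86 ± 0.15 (adjusted p = 0.00117) and the survival protein MCL1 by 0.68 ± 0.076 (adjusted p = 5.44e-05) (MCL1 not on the mean of its probes), while BCL2 was lower, with a difference of -0.60 ± 0.10 (adjusted p = 0.00106) and BID with -0.43 ± 0.089 (adjusted p = 0.00353). Interferon-stimulated genes had 14 of 45 tested members higher and 4 lower with NXF1 siRNA (median log2 difference 0.19, with 2 lower without NXF1 siRNA array 2 or control siRNA array 2). IRF7, a transcription factor of the interferon response, gave 7.97, 8.13 and 7.97 with NXF1 siRNA, against 6.78, 6.43 and 6.77 with control siRNA, and IFIT1, a sensor of foreign RNA ends, gave 8.03, 7.95 and 7.99 with NXF1 siRNA, against 8.79, 8.99 and 8.87 with control siRNA. The arrays were apart in both genes, in opposite directions. IRF1 differed by 0.79 ± 0.076 (adjusted p = 1.97e-05) and the MHC class I light chain B2M by 0.67 ± 0.16 (adjusted p = 0.00727). The hypoxia list had 8 of 27 tested members higher and 5 lower with NXF1 siRNA (median log2 difference 0.16, with 5 higher without control siRNA array 2), with the vasodilator ADM at 0.74 ± 0.15 (adjusted p = 0.00265). The remaining stress lists held few called genes: 4 of 29 tested members higher and 2 lower with NXF1 siRNA (median log2 difference 0.10, with 2 higher without control siRNA array 3) for NF-kB targets, 2 of 42 tested members higher and 3 lower with NXF1 siRNA (median log2 difference -0.021, with 4 higher without NXF1 siRNA array 1 or control siRNA array 1) for heat shock and cytosolic chaperones, 2 of 36 tested members higher and 2 lower with NXF1 siRNA (median log2 difference 0.022, with 4 lower with the filter at percentile 75 or with an intensity trend) for the proteasome and 1 of 19 tested members higher and 2 lower with NXF1 siRNA (median log2 difference 0.014) for clock genes. With the experiment number in the model 4 proteasome genes were lower and 2 clock genes higher. BAG5, a cochaperone of HSP70, was the largest fall among the chaperones, with 10.38, 10.27 and 10.35 with NXF1 siRNA, against 11.27, 11.27 and 11.38 with control siRNA.

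Lists of cell division genes had shares of lower members of 18.6% for DNA replication, 13.8% for mitotic genes and 19.3% for DNA repair, against 14.0% of all genes. That share depended on brightness: by quartile of control signal it was 1.77% in quartile 1, the dimmest, and 21.6% and 17.8% in quartiles 3 and 4. None of the 3 list shares was above the 21.6% of quartile 3. DNA replication had 0 of 59 tested members higher and 11 lower with NXF1 siRNA (median log2 difference -0.092), with DUT, which breaks down dUTP, at -0.80 ± 0.082 (adjusted p = 3.07e-05), DNA ligase LIG1 at -0.72 ± 0.11 (adjusted p = 0.000437) and TIMELESS, of the fork protection complex, at -0.67 ± 0.073 (adjusted p = 4.36e-05). Mitotic genes had 3 of 65 tested members higher and 9 lower with NXF1 siRNA (median log2 difference -0.059, with 5 higher on the mean of probes), with the spindle motors KIF11 and KIFC1 at -0.63 ± 0.093 (adjusted p = 0.000344) and -0.51 ± 0.11 (adjusted p = 0.00513) and CEP55, of abscission, at 0.37 ± 0.086 (adjusted p = 0.00684). DNA repair genes had 4 of 57 tested members higher and 11 lower with NXF1 siRNA (median log2 difference -0.064, with 1 higher without NXF1 siRNA array 3, control siRNA array 1 or control siRNA array 2, and 2 higher without NXF1 siRNA array 1), the largest falls being those of MUTYH, with -0.70 ± 0.076 (adjusted p = 4.36e-05), and PRKDC, with -0.63 ± 0.17 (adjusted p = 0.0136), which was called in 5 of the 6 fits that each left out 1 array, all but that without control siRNA array 3 (adjusted p = 0.0582).

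Epithelial markers that were called were mostly higher in the depleted cells. Epithelial junctions and keratins had 11 of 40 tested members higher and 4 lower with NXF1 siRNA (median log2 difference 0.11), among them CDH1 (E-cadherin), which gave 8.78, 8.63 and 9.05 with NXF1 siRNA, against 7.63, 8.03 and 8.23 with control siRNA, and the polarity protein CRB3, with 0.73 ± 0.11 (adjusted p = 0.000336). The polarity gene LLGL1 gave 10.05, 9.99 and 10.05 with NXF1 siRNA, against 10.86, 10.95 and 10.95 with control siRNA. CDH1 and LLGL1 each had groups that were apart. The colon epithelial markers had 6 of 16 tested members higher and 0 lower with NXF1 siRNA (median log2 difference 0.11), and their summed linear signal was 81256 to 81656 with NXF1 siRNA and 65094 to 68601 with control siRNA. EPCAM, KRT8, KRT18 and CDH1, which define this epithelium, all passed the filter. KRT20 and MUC2, of mature colon cells, had signals near the filter, and VIL1, CDH17 and CEACAM5 did not pass it. Of 19 fibroblast markers 10 were bright enough to test, with 1 higher and 3 lower and a summed signal of 14723 to 19950 with NXF1 siRNA and 21491 to 27203 with control siRNA. TAGLN, a contractile protein, differed by 0.92 ± 0.091 (adjusted p = 2.58e-05), ACTA2, smooth muscle actin, by -0.91 ± 0.10 (adjusted p = 3.60e-05) and vimentin (VIM) by -0.69 ± 0.11 (adjusted p = 0.000639), while the defining fibroblast genes COL1A2, COL3A1, PDGFRB and LUM did not pass the filter. Of 20 blood cell markers 10 were tested, with 2 higher and 1 lower and a summed signal of 2015 to 2261 with NXF1 siRNA and 1603 to 1747 with control siRNA. The 2 were HBA1 and HBA2, whose near-identical transcripts may share signal, with 0.74 ± 0.12 (adjusted p = 0.000792) and 0.66 ± 0.11 (adjusted p = 0.000986), and the beta globin HBB, the leukocyte gene PTPRC (CD45) and the T cell gene CD3E did not pass the filter. The part of these shifts in other differences was not tested. The actin and contractile list had 9 of 42 tested members higher and 3 lower with NXF1 siRNA (median log2 difference 0.12).

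Transcripts the study followed singly were all in the set of lower genes where they were tested, with 1 exception. SP1, the transcription factor, gave 9.17, 9.06 and 9.05 with NXF1 siRNA, against 9.85, 10.13 and 10.08 with control siRNA. RPS23, a ribosomal protein, gave 11.51, 11.49 and 11.06 with NXF1 siRNA, against 12.46, 12.50 and 12.34 with control siRNA. ARPP19, an inhibitor of the phosphatase PP2A, gave 9.41, 8.99 and 8.66 with NXF1 siRNA, against 10.32, 9.99 and 9.93 with control siRNA. In all 3 the groups were apart. EXOSC6, an intronless exosome subunit, differed by -0.87 ± 0.083 (adjusted p = 1.97e-05), the mitochondrial enzymes IDH2 and TST by -0.92 ± 0.089 (adjusted p = 2.05e-05) and -0.76 ± 0.077 (adjusted p = 2.93e-05), and galactokinase GALK1 by -0.95 ± 0.078 (adjusted p = 7.16e-06). FOSL1, an AP-1 subunit, had 10.95, 10.53 and 10.45 with NXF1 siRNA, against 10.41, 10.18 and 9.996 with control siRNA, a difference of 0.45 ± 0.16 (adjusted p = 0.0506) that was not called without the experiment number in the model and had an adjusted p of 0.000705 with it. The study named these transcripts with results of its own in view, so their direction here is not independent evidence. PDXP is not analysed here.

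The differences within each experiment describe the called genes and are no check of the calls, which rest on the same arrays. In experiments 1, 2 and 3, the median difference between the NXF1 siRNA and control array was 0.40, 0.45 and 0.46 for the genes called higher and -0.39, -0.48 and -0.48 for those called lower. Of the 1521 higher genes, 1518 had 3 positive differences, and of the 1842 lower genes, 1836 had 3 negative ones. Among all genes tested 29.2% had 3 positive and 30.4% had 3 negative differences. Over all 13118 genes the differences of experiments 1 and 2 correlated at 0.72, of 1 and 3 at 0.76 and of 2 and 3 at 0.81, across genes, which are not independent replicates.

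The called genes were also described by signal, length, type and position. The control signal is itself a term of each difference and of the filter. By its quartile, from dim to bright, 4.02%, 13.1%, 16.3% and 12.9% of genes were higher and 1.77%, 15.1%, 21.6% and 17.8% were lower. The gene lists above were set against all genes tested and not against genes of similar signal. By the length of the gene on the chromosome, in RefSeq, genes of 2 to 5 kb had the highest share of large falls: 37 of 1084 (3.41%) were called lower by more than 0.75, against 29 of 3019 (0.961%) for genes of 10 to 25 kb and 11 of 888 (1.24%) for genes over 200 kb. For large rises the shares were 1.48%, 1.16% and 0.901% in the same classes, and no test was made. Genes under 2 kb had 13 large falls among 533 (2.44%). Genes of 2 to 5 kb had a median control log2 signal of 8.15, close to the 8.50 of genes of 10 to 25 kb. Of the genes without introns named above, CSTF2T and SOX4 are in the class of 2 to 5 kb, JUND in that under 2 kb and EXOSC6 in that of 5 to 10 kb. All of these were lower. The classes of the others, HNRNPA0, PCBP1 and RRAGA, which were lower, and JUN, which was higher, are not given here. The tables used here hold no exon numbers, and the share of intronless genes was not computed. By type, 1490 of 12595 protein-coding genes were higher and 1808 lower, while of 323 long noncoding RNAs 9 were higher and 23 lower. By chromosome, the share of higher genes ran between 7.97% and 13.3% and that of lower genes between 11.5% and 19.4%. Median promoter GC content was 65.7% in higher genes, 65.3% in lower genes and 64.0% in the others.

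**Figure D5:**
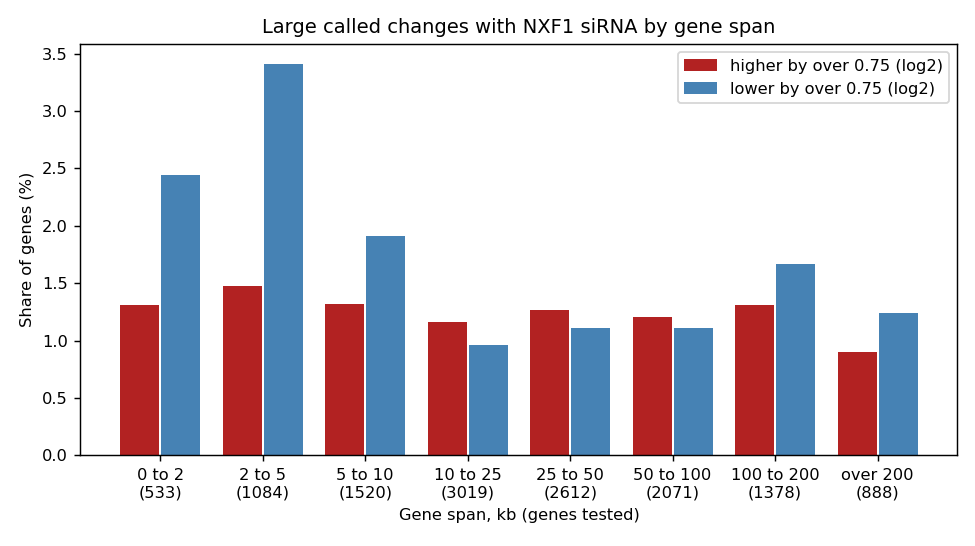
Share of tested genes (y axis, percent) called with a log2 difference over 0.75 (red) or under -0.75 (blue), by the length of the gene in RefSeq (x axis, kb; number of genes in brackets). The blue bar is highest for genes of 2 to 5 kb, at 3.41%, and the red bars lie between 0.901% and 1.48%.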

How the data were processed

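Cytoplasmic RNA of HCT116 cells was amplified, labelled with biotin and hybridised to 9 Illumina HumanWG-6 v3 arrays, 3 each with NXF1, GANP and control siRNA. The authors read the arrays in BeadStudio, quantile normalized them and used lumi (version not given) and limma, and the deposited value table holds their linear signal intensity for 48803 probes. No subtraction of background is stated. A second table of signals without normalization has 18 columns of per-array values that no label ties to a sample, and it was not used here.

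From the intensity values, background was modelled with normexp (offset 50) in limma 3.58.1 under R 4.3.3, and the arrays were quantile normalized again and taken to log2. In the platform annotation 27578 probes carried 1 gene symbol, 13 several and 21212 none. A probe was kept where it had 1 symbol and its log2 signal, averaged over the arrays, exceeded the median probe's (6.35), and the brightest stood for its gene. Among 3353 genes with more than 1 such probe, 37 had probes whose calls were opposite. Of the 13118 genes, 13105 matched RefSeq (GRCh38.p14), and 81.1% had a promoter sequence. Array signals have no read depth; the number of arrays, 3 per group, limits the precision. Per the study's methods the RNA came from 3 separate depletion experiments in this cell line, and p-values measure the spread between them.

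All 9 arrays were fitted with lmFit and eBayes without a block, and NXF1 siRNA was compared with control siRNA. The labels number the arrays by depletion experiment. After group means were removed, NXF1 siRNA and control arrays of the same experiment correlated at 0.11 to 0.41 across genes and those of different experiments at -0.38 to 0.045, so the numbers were taken to pair the arrays. The main fit does not use this pairing, so its standard errors hold spread that is shared within an experiment. With the experiment as a block, 270 more genes were called higher and 230 more lower, and no call was lost. Alternatives were the experiment number as a replicate block, no background correction, no second normalization, the authors' values, median scaling, no filter, a filter at percentile 75, averaging the probes of a gene, a fit of 6 arrays, a trend of the variance with intensity, no threshold on the fold, adjusted p under 0.01 and leaving out each array in turn. On simulated data with the same means and spread, limma called 100% of genes changed by 1, 94% of those raised by 0.5 and 88% of those lowered by 0.5 (log2). The simulation changed far fewer genes than were called here and drew the arrays independently, with no effect shared within an experiment. Its shares are therefore a check of the code and not the power of this comparison.

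Genes named in the text are the transcripts the study names, MCM3AP, the 10 largest rises and 10 largest falls among called genes with separate arrays, up to 4 called members of each of 53 gene lists in each direction, and the export factors. The members of the ER, stress response, noncoding RNA and mTOR lists named beyond this (HSPA5, XBP1, CALR, CANX, HSP90B1, CRELD2, CHAC1, ASNS, SLC3A2, MEG3, RN7SL1, RPPH1, SNORA70 and RRAGC) were chosen after their values were seen. Some genes given without values, such as CARS1 and TARS2, lie outside these rules. Gene lists, members and rules were chosen with earlier results of these data known, and lists are described by counts and medians, with no set test.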

Additional observations from a re-analysis of the deposited data

How the results depend on the processing

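The counts of higher and lower genes stayed within 1.5 times 1521 and 1842 under every alternative run except the stricter threshold: at an adjusted p under 0.01, 938 genes were higher and 1189 lower. With a replicate block for the experiment, 1791 were higher and 2072 lower, and all 1521 and 1842 calls were kept. Beside DDX39A, RN7SL1 and FOSL1, whose calls are given above, the block changed no other call of a gene given here with its values. Genes named without values, such as CARS1, may gain a call with the block. With it, higher synthetase genes went from 4 to 5 and higher stress response genes from 20 to 23. When each array was left out in turn, between 1181 and 1563 genes were higher and between 1422 and 1853 lower, and 973 higher and 1232 lower genes were called in all 6 such fits. Over the same 6 fits, 17 to 22 genes of the ER chaperone list and 16 to 21 of the stress response list were higher, and 15 to 19 of the fatty acid oxidation list and 13 to 19 of the SR and hnRNP list were lower. In these fits 11 to 25 of the 106 list counts moved by over 1.5 times, and those with at least 4 genes on either side are given beside the list. At an adjusted p under 0.01, 50 of the 106 moved, and these are not given beside the lists. Autophagy and lysosomal genes then had 7 higher each, export factors 2 higher and 0 lower, and translation factors 3 lower. The ER chaperone list had 17 higher and the fatty acid oxidation list 12 lower. With the mean of a gene's probes DBT was not called and its difference changed sign (-0.0605), and 2 genes, none of them named here, were called in the opposite direction. Quantile normalization cannot show a change of total cytoplasmic mRNA, genes near the filter have compressed differences, and the NXF1 transcript and exon structures were not analysed here.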

Other observations

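Genes were also grouped by the letters that begin their symbols, which gave 64 groups with at least 20 tested genes. These groups were looked at after the values were seen, and their counts are descriptions set against 11.6% higher and 14.0% lower among all genes. Solute carriers (SLC, 256 genes) had 41 higher and 18 lower genes, and transmembrane proteins of the TMEM series (166 genes) 29 and 19. Dual-specificity phosphatases (DUSP, 22 genes), which switch off MAP kinases, had 7 higher and 2 lower. Interleukins and their receptors and relatives (IL, 44 genes) had 7 higher and 0 lower. Ubiquitin-specific proteases (USP, 40 genes) had 6 higher and 1 lower, while TRIM proteins, many of them ubiquitin ligases (53 genes), had 3 higher and 14 lower. Methyltransferase-like proteins (METTL, 22 genes) had 3 higher and 8 lower. The small GTPases of membrane traffic (RAB, 57 genes) had 10 higher and 17 lower, above the share of all genes in both directions. Collagens (COL, 27 genes) had no called gene, and olfactory receptors (OR, 85 genes) 1 in each direction. Zinc finger genes (ZNF, 329 genes) had 20 higher and 34 lower, both shares below those of all genes.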
